A study of Mus musculus with 16 samples.

Results

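The genes described here are 42 genes of mitosis, chosen by name: the kinases and cyclins of mitotic entry, the chromosomal passenger complex, kinetochore and spindle checkpoint proteins, mitotic kinesins, and the proteins that trigger anaphase. Of them, 41 had a probe set naming that gene alone, and these 41 were all among the 11451 genes tested, of 18193 genes with such a probe set. Ccnb1 had none in the probe table used and was not analysed here. The choice of the genes used no measured value of theirs, but it was made with earlier results of these data known. Each gene was represented by the probe set with the highest mean signal, and all 41 lay above the median of the array on all 16 arrays, so none entered the test through a single group.

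RNA was measured in cultured mouse embryonic fibroblasts, connective tissue cells grown from embryos, with Affymetrix 3′ expression arrays. Wild-type (CHOP+/+) and CHOP-/- cells were each left untreated or exposed for 8 hours to MG132, a proteasome inhibitor, at 1 µM, with 4 culture plates and 4 arrays per group. Ddit3 encodes CHOP, a transcription factor of the stress response, and the title of the series states a search for CHOP dependent genes under proteasome inhibition. The sources used here do not say from how many embryos or cell isolates the plates came, so that p-values reflect only how plates vary, and the Ddit3 genotype and the cell isolate cannot be told apart. The labels of the untreated cells disagree: some fields say that nothing was given, another names DMSO as the vehicle.

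Mitosis is driven by the kinase CDK1 with cyclin A or B, which CDC25 phosphatases activate and which acts with the Polo and Aurora kinases to build the spindle. The spindle checkpoint holds the anaphase-promoting complex (APC/C) inactive until every kinetochore is attached, after which APC/C with CDC20 sends cyclin B and securin to the proteasome, so that separase can part the sister chromatids. Transcripts of these genes accumulate late in the cell cycle, in G2 and mitosis, under the MuvB complex with B-MYB and FOXM1, and are repressed when the same complex joins p107, p130 and E2F4. The arrays measured RNA of whole cultures, in which fewer cells in G2 and mitosis and less RNA per such cell cannot be told apart. Protein levels, which a proteasome inhibitor alters directly, were not measured.

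The promoters of these genes share sequence features that the choice by name did not use. MuvB contacts the letters TTTGAA or TTCGAA (the cell cycle homology region) through LIN54, NF-Y binds the CCAAT box, and GCGGGAA and TTGGCGC are forms of the E2F site. Windows of 300 bases, 250 before and 50 from the start of the gene, were taken from RefSeq (mouse assembly GRCm38.p6) and searched on both strands, each motif counted separately. Of the 42 genes 35 had a window, with 37 windows in all. TTTGAA stood in 25 of the 37 windows (67.6%), against 17.9% of all 32851 windows and 11.9% of those of the tested genes. CCAAT stood in 28 (75.7%), against 37.4% of all windows, and at least 2 copies in 19 (51.4%), against 11.7%. A CCAAT box together with TTTGAA or TTCGAA was found in 24 (64.9%), against 7.5%. The letters TTCGAA, counted whether or not another motif was present, stood in 4 windows (10.8%, against 1.6%). GCGGGAA was in 1 (2.7%, against 4.6%) and TTGGCGC in 2 (5.4%, against 2.5%).

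The following 7 windows of 140 bases, from 110 before to 30 from the gene start on the gene's own strand, are shown because their genes represent each kind of response described below. Capitals mark the homology region and the CCAAT box on either strand. TTCAAA is the first read from the opposite strand, and ATTGG is the CCAAT box read in the same way. Ccnb2 (chr9:70421525-70421664, minus strand) and Spc25 (chr2:69206184-69206323, minus strand) fell in both genotypes, Cdc25b (chr2:131186838-131186977, plus strand), Kif23 (chr9:61946770-61946909, minus strand) and Ttk (chr9:83834579-83834718, plus strand) responded differently in the genotypes, Cenpf (chr1:189688057-189688196, minus strand) rose in both, and Pttg1 (chr11:43425952-43426091, minus strand) differed most between the genotypes in level.
Ccnb2: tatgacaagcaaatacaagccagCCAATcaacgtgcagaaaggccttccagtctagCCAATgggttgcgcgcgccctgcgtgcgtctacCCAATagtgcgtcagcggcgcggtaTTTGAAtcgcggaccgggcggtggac
Spc25: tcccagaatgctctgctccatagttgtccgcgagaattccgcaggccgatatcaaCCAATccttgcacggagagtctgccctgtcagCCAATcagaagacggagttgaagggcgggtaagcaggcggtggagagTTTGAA
Cdc25b: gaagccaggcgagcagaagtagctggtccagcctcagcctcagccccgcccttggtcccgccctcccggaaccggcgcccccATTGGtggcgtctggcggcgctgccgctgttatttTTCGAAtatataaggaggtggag
Kif23: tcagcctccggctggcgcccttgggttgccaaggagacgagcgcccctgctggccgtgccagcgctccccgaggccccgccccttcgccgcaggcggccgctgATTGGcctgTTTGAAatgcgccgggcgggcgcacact
Ttk: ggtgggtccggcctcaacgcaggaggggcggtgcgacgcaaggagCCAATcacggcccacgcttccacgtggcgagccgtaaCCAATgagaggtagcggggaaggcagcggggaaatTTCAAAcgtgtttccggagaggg
Cenpf: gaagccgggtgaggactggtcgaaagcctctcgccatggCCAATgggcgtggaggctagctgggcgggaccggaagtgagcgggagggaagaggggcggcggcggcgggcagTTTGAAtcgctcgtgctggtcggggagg
Pttg1: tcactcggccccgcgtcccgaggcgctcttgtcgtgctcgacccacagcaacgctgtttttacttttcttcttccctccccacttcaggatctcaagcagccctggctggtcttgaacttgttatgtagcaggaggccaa
Whether the motif letters go with the response was not tested, and the groups of windows counted here overlap. TTTGAA was found in 11 of 15 windows of the genes whose responses differed between genotypes, in 16 of 24 of those that fell in wild-type cells, and in 3 of 4 of those that rose in both genotypes. CCAAT was found in 12, 16 and 3 of these windows, and at least 2 copies of it in 6, 9 and 3. The windows of Ccnb2, which fell, and Cenpf, which rose, both hold CCAAT and TTTGAA in a similar order, and the window of Pttg1 holds none of these letters.

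Arrays of a group correlated at 0.985 to 0.992 over the tested genes, and each array had been scaled by the authors to a mean of 1000 after trimming 2% at either end. The label check held for Ddit3, which went from 1017 ± 101 to 7724 ± 587 with MG132 in the wild type and from 368 ± 24.0 to 396 ± 38.9 in the knockout (mean ± SD, n = 4 arrays here and below). Of 14 fibroblast markers 13 passed the filter, and Vim, Col1a2 and Fn1 had high signals in all 4 groups. In the wild-type response 8 of the 13 were called lower and 3 higher, in the knockout response 9 (69.2%) and 1. The difference between the responses was called lower in 8 (61.5%, against 14.1% of all tested genes) and higher in 2. Between untreated genotypes the log2 differences of the 13 ranged from -4.189 to 4.546. Pdgfra gave 2351 ± 239 in untreated wild-type but 118 ± 43.7 in untreated knockout cells, and Thy1 227 ± 21.7 and 2727 ± 159, so the cultures differed in more than Ddit3. Of 6 macrophage and leukocyte markers 2 passed the filter on low signals, Csf1r and Cd68, at group means of 121 to 321. Both were called higher with MG132 in wild-type cells (log2 changes from 0.473 to 0.633) and 1 of them in the knockout. Of all tested genes 27.2% and 25.7% were called higher in these responses. Ptprc, which did not pass the filter, read 20.5 ± 16.7 without and 27.4 ± 29.3 with MG132 in the wild type. Among 6 epithelial markers Krt14 rose with MG132, to 471 ± 78.9 in wild-type and 63.6 ± 35.5 in knockout cells, while Cdh1 read 53.0 ± 14.1 and 67.0 ± 12.4. Of 5 endothelial markers Kdr passed the filter and rose in the knockout (43.9 ± 34.9 to 181 ± 64.6) but not in the wild type (64.3 ± 11.8 and 75.9 ± 40.5), a difference of 1.82 (SE 0.60, adjusted p = 0.0267), with Pecam1 at group means of 8.82 to 14.2 and Cdh5 at 54.5 to 69.9. Of 5 skeletal muscle markers Des and Acta1 passed the filter; Acta1 fell in the wild type (1104 ± 179 to 502 ± 72.4) but not in the knockout (446 ± 24.98 and 478 ± 64.6), a difference of 1.20 (SE 0.17, adjusted p = 2.95e-05), with Myod1 at 50.5 to 75.4 and Myog at 26.3 to 32.3. The part of these markers in the results below was not tested. The 3′ to 5′ signal ratio of Actb was 1.11 to 1.19 on untreated and 1.19 to 1.27 on treated arrays, and its part in the results was not tested.

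In wild-type cells MG132 lowered most of the mitotic genes. Of the 41 genes 27 fell (65.9%) and 5 rose (12.2%), where limma called 36.9% of all tested genes lower and 27.2% higher (adjusted p under 0.05, Benjamini-Hochberg over all tested genes, here and below). The median log2 change was -0.33, against -0.07 for all tested genes. The strongest falls were those of Aurkb (-1.28), Plk1 (-1.19), Spc25 (-1.02), Cdc25b (-0.99) and Kif2c (-0.94), genes of the passenger complex, of mitotic entry, of the kinetochore and of the spindle. Centring each array on the median of the tested genes, a scaling chosen after seeing the data, shifted the median change over all tested genes upward by 0.20 in the wild type and by 0.14 in the knockout, and then 20 mitotic genes fell and 11 rose in wild-type cells, with a median of -0.13 against 0.13 for all tested genes.

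In CHOP-/- cells the same treatment lowered fewer of them and raised more. 18 of 41 genes fell (43.9%) and 12 rose (29.3%), against 36.8% and 25.7% of all tested genes. Both shares were near those of all tested genes, and the median change was -0.066, against -0.074 for all tested genes. Spc25 (-1.12), Ccnb2 (-0.95) and Aurkb (-0.79) fell furthest. With arrays centred on the tested genes 13 fell and 16 rose, with a median of 0.079, and all tested genes moved with them, to a median of 0.071 with 27.7% lower and 34.9% higher.

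The response differed between the genotypes in 17 genes (41.5%), where 14.2% of all tested genes were called in that direction, and all 17 had the higher value in the knockout. In 0 genes did limma call the knockout response lower, where it called 14.1% of all tested genes; at an unadjusted p under 0.05 the counts were 20 and 1. The median difference, knockout minus wild-type, was 0.21 over the 41 genes and -0.002 over all tested genes, with 36 positive values and 5 negative ones (Ccnb2, Cenpf, Ndc80, Spc25 and Nusap1). Of the 17 genes 13 stayed past the threshold in each of the 24 alternative fits that used the same probe sets, scaling and left-out arrays included. The other 4 lost the call with arrays centred on the tested genes, Cdc20 and Ube2c in that fit alone. Kif20a lost it in 16 and Nek2 in 12 of the 24 fits, among them median centring (adjusted p = 0.0515 and 0.0518), no filter (0.0554 and 0.0514), no trend (0.0561 and 0.0502) and 12 and 8 of the 16 fits that left out 1 array.

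A further 9 of the 24 genes without a call passed when a certain array was left out. Without the first untreated wild-type array these were Ccna2 (0.242), Kif11 (0.382) and Mad2l1 (0.261), and without the third treated knockout array Nuf2 (0.396). Foxm1 passed without the third untreated (0.375) or the fourth treated wild-type array (0.357), and without the second untreated (0.361) or the first treated knockout array (0.351). Incenp passed without the fourth untreated wild-type (0.188) or the second treated knockout array (0.191), and Mad2l1 also without the latter (0.264). Cenpa did so without the first treated wild-type (0.216), Espl1 without the first treated knockout (0.376) and Ccnb2, in the other direction, without the fourth untreated knockout array (-0.163).

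**Figure D1:**
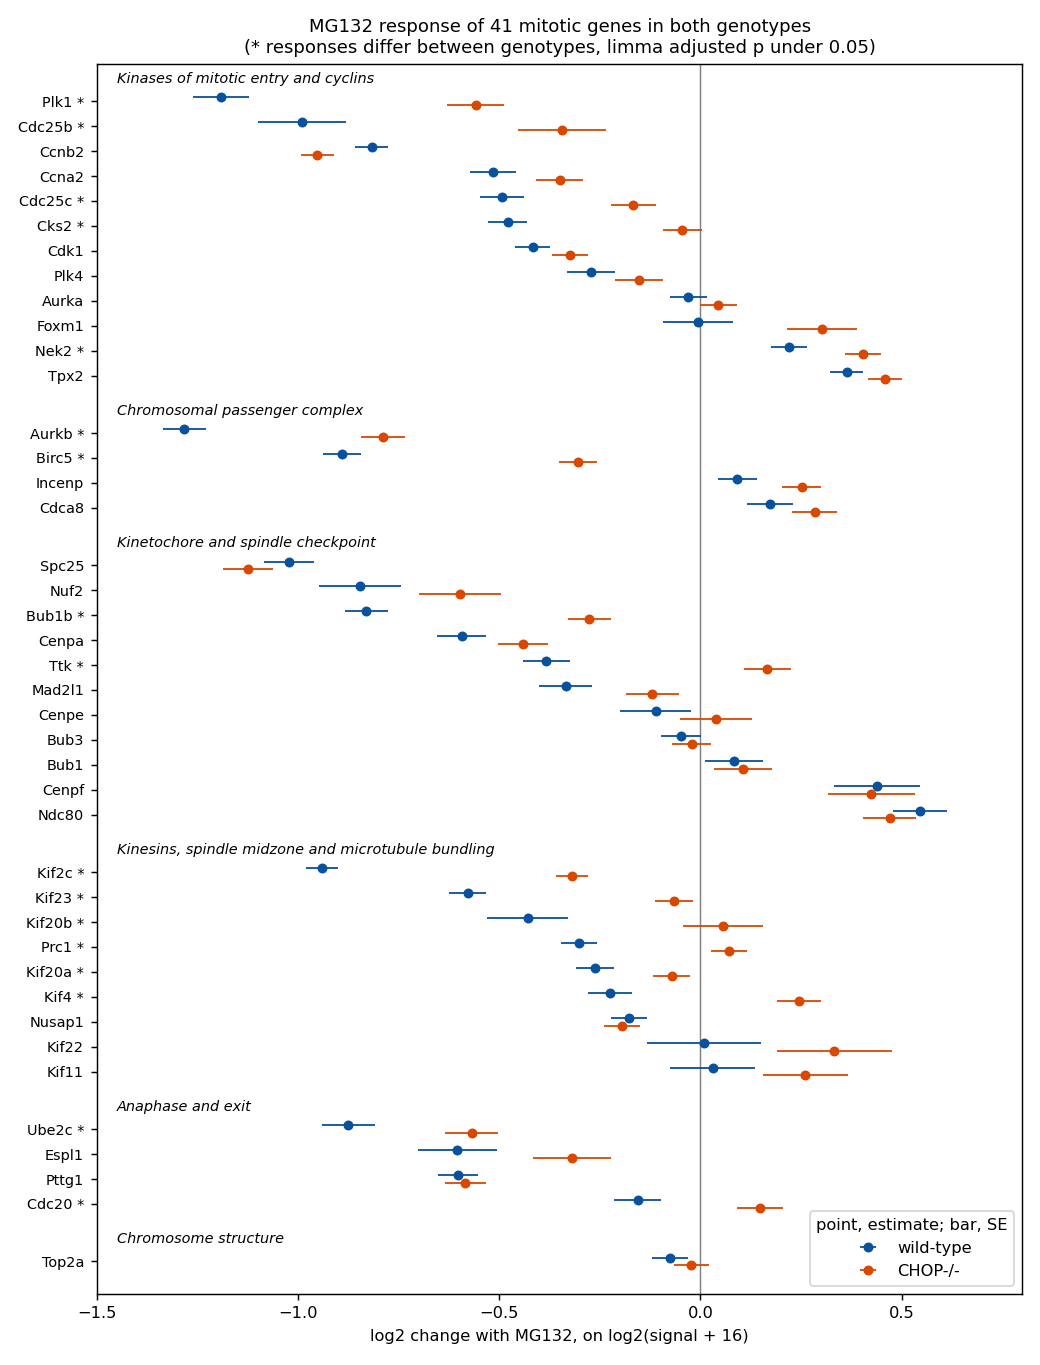
Log2 change with MG132 (MG132 minus untreated, 4 arrays per group) of the 41 mitotic genes in wild-type and CHOP-/- cells, grouped by role, with bars of 1 standard error (SE) from limma and stars on genes whose responses differed. In wild-type cells 27 genes fell and 5 rose, in knockout cells 18 fell and 12 rose, and most knockout points lie to the right of the wild-type points of the same gene.

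The responses of both genotypes ordered the genes alike but not by the same amount. Across the 41 genes, which are not independent replicates, the wild-type and knockout changes had a Pearson correlation of 0.874 and a Spearman correlation of 0.896, given as a description. These changes come from separate arrays. In 18 genes the signal fell in both genotypes, and among the 32 genes with a negative change in wild-type cells the change was more negative there than in the knockout in 29. The exceptions were Ccnb2, Spc25 and Nusap1.

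**Figure D2:**
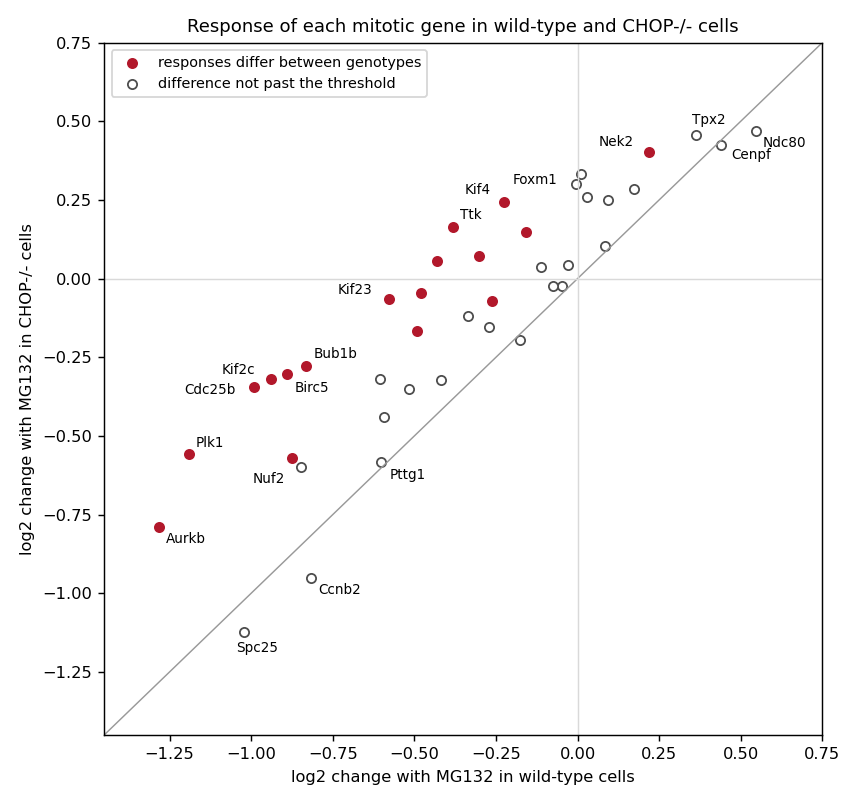
Log2 change with MG132 in CHOP-/- cells (vertical axis) against that in wild-type cells (horizontal axis), 1 point per mitotic gene, with the line of equal change; the 17 genes whose responses differed in limma are marked. 36 of 41 points lie above the line, and Ccnb2 and Spc25, whose responses did not pass a difference, lie close to it.

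Among the kinases and cyclins of mitotic entry, 8 of 12 measured genes fell in wild-type (66.7%) and 7 in knockout cells (58.3%), against 36.9% and 36.8% of all tested genes. The genes that rose numbered 2 and 3 (16.7% and 25%, against 27.2% and 25.7%), and 5 had the higher response in the knockout (41.7%, against 14.2%). Cdk1, the kinase at the centre of mitotic entry, read 14578, 16143, 16961 and 16164 on the 4 untreated and 12361, 11358, 12116 and 11917 on the 4 treated wild-type arrays. The knockout arrays gave 19221, 19486, 20088 and 19183 untreated and 15714, 15318, 15514 and 15751 treated. In each genotype all treated arrays lay below all untreated ones, and at each treatment all knockout arrays lay above the wild-type ones. The changes were -0.42 (SE 0.044, adjusted p = 6.35e-08) and -0.32 (SE 0.044, adjusted p = 2.38e-06), and their difference of 0.094 (SE 0.063, adjusted p = 0.291) did not pass, with a 95% interval of -0.037 to 0.22. Knockout cells were higher by 0.29 (SE 0.044, adjusted p = 1.24e-05) when untreated.

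Cyclin B2 (Ccnb2), a partner of CDK1, gave 8741, 9089.6, 9321 and 8756 on untreated and 5174, 5181, 5017 and 4977 on treated wild-type arrays. In the knockout it gave 10504, 10609.9, 11041 and 9923 and 5384, 5299, 5507 and 5517. Treated and untreated arrays did not overlap in either genotype, and the knockout lay above the wild type at both treatments. Ccnb2 changed by -0.82 (SE 0.042, adjusted p = 9.43e-13) in wild-type and -0.95 (SE 0.042, adjusted p = 1.1e-13) in knockout cells. The difference of -0.13 (SE 0.059, adjusted p = 0.0939) did not pass, but it passed without the fourth untreated knockout array (-0.163, adjusted p = 0.048). Cyclin A2 (Ccna2), which acts in S phase and at mitotic entry, also fell in both (-0.52 and -0.35), from 14923 ± 1518 and 14030.0 ± 512. The difference of 0.17 (95% interval -0.0055 to 0.34) did not pass, but it passed under median centring (0.259, adjusted p = 0.0363), with the mean of all probe sets (0.192, adjusted p = 0.00822) and without the first untreated wild-type array (0.242, adjusted p = 0.00354).

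Both CDC25 phosphatase genes fell less in the knockout. Cdc25b went from 1955 ± 354 to 968 ± 78.5 in wild-type and from 1529 ± 216 to 1195 ± 88.1 in knockout cells, and the difference between the responses, 0.65 (SE 0.16, adjusted p = 0.00362), was the largest value of any member. Cdc25c read 1944, 2074, 2057 and 2156 on untreated and 1458, 1436, 1465 and 1466 on treated wild-type arrays. Its knockout arrays read 1373, 1435, 1397 and 1319 and 1207, 1221, 1169 and 1319. At both treatments every knockout array lay below every wild-type one, and within the knockout treated and untreated arrays overlapped. The difference between the responses was 0.33 (SE 0.078, adjusted p = 0.0036), and the knockout lay at -0.57 (SE 0.055, adjusted p = 2.6e-08) relative to the wild type without MG132 and at -0.24 with it. Cks2, which encodes a small CDK-binding subunit, fell in wild-type cells by -0.48 and changed by -0.045 (SE 0.049, adjusted p = 0.448) in the knockout, where it did not pass; the difference was 0.43 (SE 0.070, adjusted p = 0.000104).

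Plk1, the Polo kinase that acts from mitotic entry to cytokinesis, fell from 4984 ± 271 to 2183 ± 257 in wild-type and from 5157 ± 227 to 3497 ± 159 in knockout cells. Its untreated levels did not pass a difference between genotypes (0.050 (SE 0.070, adjusted p = 0.577)), whereas the difference between the responses was 0.63 (SE 0.099, adjusted p = 8.4e-05). Plk4, the kinase of centriole duplication, fell in both genotypes (-0.27 and -0.15). The fall in the knockout missed the threshold in 9 of 25 alternative fits with the same probe set, among them median centring (-0.110, adjusted p = 0.259), only the groups compared (0.0546), no trend (0.055) and 5 of the 16 fits that left out 1 array. With arrays centred on the tested genes neither fall passed (-0.068 and -0.008). Aurka, the Aurora kinase of the spindle poles, did not pass in either genotype (-0.030 (SE 0.046, adjusted p = 0.592) and 0.045 (SE 0.046, adjusted p = 0.414)).

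Nek2 and Tpx2 rose in both genotypes on their brightest probe sets, and in this group they were the 2 genes called higher in wild-type cells. Tpx2, which activates Aurora A on spindle microtubules, read 6934, 7606, 7467 and 7093 on untreated and 9464, 9274, 9399 and 9287 on treated wild-type arrays. The knockout gave 6168, 6361, 6035 and 6529 and 8782, 8618, 8268 and 8813. All treated arrays lay above the untreated ones in each genotype, and all knockout arrays below the wild-type ones at each treatment. The rises were 0.36 (SE 0.042, adjusted p = 1.96e-07) and 0.46 (SE 0.042, adjusted p = 7.93e-09). For Nek2, a centrosomal kinase, the signals were 7016, 7232, 6635 and 6816 and 7812, 8324, 8107 and 8012 in wild-type cells. In knockout cells they were 6342, 7049, 6705 and 6475 and 8318, 8988, 8962 and 8880.0. Treated arrays lay above untreated ones in both genotypes, and the genotypes overlapped at both treatments. Nek2 rose by 0.22 and 0.40, and the difference of 0.18 (SE 0.063, adjusted p = 0.0347) passed narrowly. It missed the threshold in 12 of the 24 alternative fits with the same probe set, 8 of them fits that left out 1 array, and with the mean of all probe sets it was 0.012. The rises of Nek2 were then 0.086 and 0.098, neither past the threshold, and that of Tpx2 in wild-type cells was 0.117, not past it either. A dimmer probe set of Nek2 fell in both genotypes (-0.55 and -0.63), so these rises depend on the probe set.

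Foxm1, a transcription factor gene whose product drives many genes of this set, read 2391, 2061, 1799.9 and 2094 on untreated and 1816, 2122, 2069 and 2296 on treated wild-type arrays. Untreated knockout arrays read 1366, 1678, 1439 and 1527 and treated ones 1687, 1929, 1994 and 1807. The wild-type groups overlapped, whereas all treated knockout arrays lay above the untreated ones, and the untreated knockout lay below the untreated wild type. The change was -0.0050 (SE 0.087, adjusted p = 0.963) in wild-type and 0.30 (SE 0.087, adjusted p = 0.00496) in knockout cells, and the difference of 0.31 (SE 0.12, adjusted p = 0.0684) did not pass. Further probe sets of Foxm1 gave other values in a limma fit over all single-gene probe sets. In wild-type cells they fell (-0.46 and -0.63, adjusted p = 0.00869 and 0.00114). Their knockout changes of 0.13 and 0.044 did not pass, and differences between the responses of 0.60 and 0.67 passed (adjusted p = 0.0399 and 0.028). The mean of all probe sets gave a knockout change of 0.042 (adjusted p = 0.79), so the rise depends on the probe set.

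**Figure D3:**
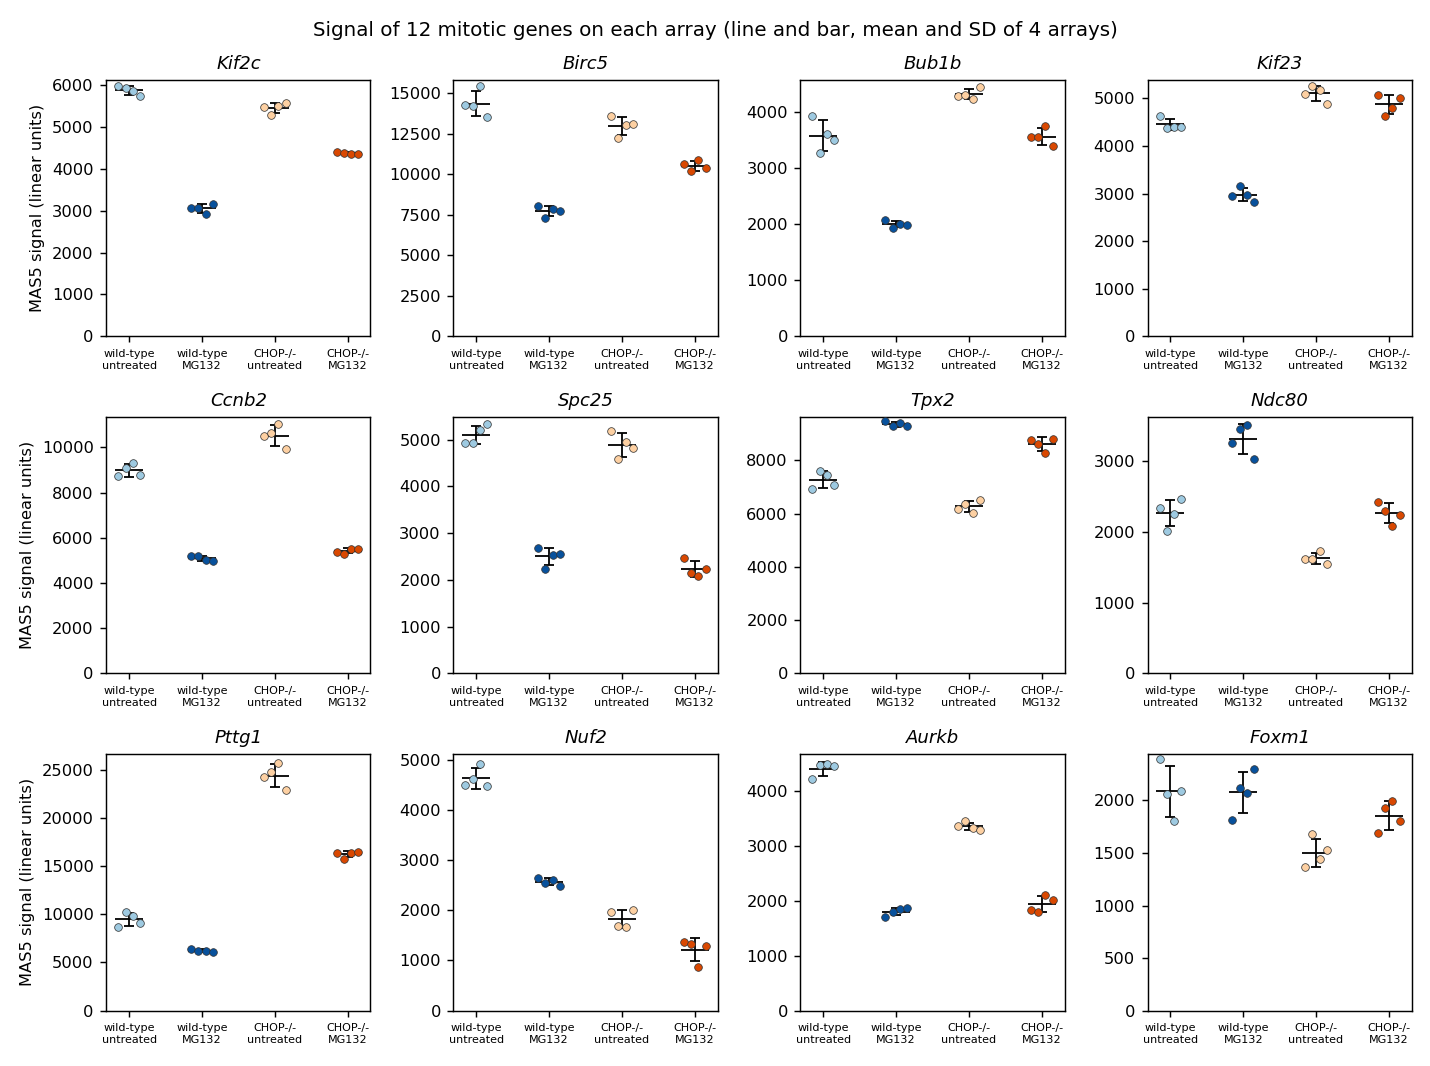
Deposited signal (linear MAS5 units, axes from 0) of 12 mitotic genes on each of the 16 arrays, 1 point per array with the mean and SD of 4 arrays as line and bar, in untreated and MG132-treated wild-type and CHOP-/- cells. Birc5, Kif2c, Kif23 and Bub1b fall further in the wild type, Tpx2 and Ndc80 rise in both genotypes, and Pttg1 lies higher in the knockout at both treatments.

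The chromosomal passenger complex, which corrects faulty kinetochore attachments and later guides cytokinesis, split into a pair of genes that fell and a pair that rose or stayed within the spread. Aurkb, its kinase, read 4218, 4469, 4482 and 4452 on untreated and 1711, 1788, 1843 and 1867 on treated wild-type arrays. Knockout arrays read 3354, 3445, 3319 and 3296 untreated and 1831, 1795, 2113 and 2014 treated. On this probe set treated arrays lay below untreated ones in both genotypes, and the treated arrays of the genotypes overlapped although the untreated knockout started lower. The change of -1.28 (SE 0.054, adjusted p = 5.13e-14) in wild-type cells was the strongest fall of any member, that in the knockout was -0.79 (SE 0.054, adjusted p = 1.08e-10), and they differed by 0.49 (SE 0.077, adjusted p = 7.42e-05). A further bright probe set, in a limma fit over all single-gene probe sets, gave a similar difference between the responses (0.57). There the knockout minus wild-type difference was -0.13 untreated (adjusted p = 0.1285), not past the threshold, and 0.43 treated (adjusted p = 1.434e-05). The comparison of levels between the genotypes thus depends on the probe set.

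Birc5 encodes survivin, which targets the complex to the centromere. Its signals were 14285, 14197, 15411 and 13509 and 8036, 7265, 7875 and 7747 on untreated and treated wild-type arrays. On knockout arrays they were 13585, 12256, 13018 and 13109.7 and 10654, 10179.6, 10861 and 10382. The treated wild-type arrays lay below all others, and treated knockout arrays lay between them and the untreated groups. Birc5 changed by -0.89 (SE 0.047, adjusted p = 1.95e-12) and -0.30 (SE 0.047, adjusted p = 1.19e-05), a difference of 0.59 (SE 0.067, adjusted p = 2.12e-06).

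Cdca8, which encodes the subunit borealin, gave 12095, 10867, 11876 and 10096 and 12870.0, 12725, 12626 and 12307 in wild-type cells. Knockout cells gave 11099, 10238, 10712 and 10582 and 13644, 12284, 13893 and 12174. Treated arrays lay above untreated ones in both genotypes, and the genotypes overlapped. The rises were 0.17 (SE 0.056, adjusted p = 0.0109) and 0.28 (SE 0.056, adjusted p = 0.000174); the first missed the threshold with quantile-normalised arrays (0.113), with median-centred ones (0.122) and without the fourth untreated wild-type array (0.123). Incenp, the scaffold of the complex, read 14019, 14655, 14972 and 13421 and 15423, 15390.0, 15298 and 14671 on wild-type arrays and 16028, 15921, 16520.0 and 14708 and 18893, 17594, 19943 and 18786 on knockout arrays. The wild-type groups overlapped and the treated knockout arrays lay above the untreated ones. Its change was 0.092 (SE 0.048, adjusted p = 0.101), not past the threshold, in wild-type cells and 0.25 (SE 0.048, adjusted p = 0.000119) in the knockout.

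Of 11 kinetochore and spindle checkpoint genes 6 fell (54.5%) and 2 rose in wild-type cells, where 36.9% and 27.2% of all tested genes did. In the knockout 4 fell (36.4%) and 3 rose (27.3%), and the responses of 2 differed (18.2%), all near the shares of all tested genes (36.8%, 25.7% and 14.2%). Bub1b, whose product BubR1 is part of the checkpoint complex that inhibits APC/C, read 3940.2, 3268, 3604 and 3507 on untreated and 2076, 1938, 2013 and 1981 on treated wild-type arrays. The knockout read 4281, 4304, 4242 and 4454 and 3549, 3561, 3758 and 3397. Treated arrays lay below untreated ones in each genotype, and the knockout lay above the wild type at each treatment. The changes of -0.83 (SE 0.053, adjusted p = 3.47e-11) and -0.28 (SE 0.053, adjusted p = 0.000141) differed by 0.55 (SE 0.076, adjusted p = 1.78e-05), and the treated knockout was higher by 0.83 (SE 0.053, adjusted p = 4.77e-11). Ttk, the checkpoint kinase MPS1, fell from 3690.5 ± 200.3 to 2829 ± 201 in wild-type cells but rose from 2854 ± 157 to 3201 ± 122 in the knockout, a difference of 0.55 (SE 0.083, adjusted p = 5.47e-05). The rise missed the threshold under median centring (0.208, adjusted p = 0.0532), without the second untreated knockout array (0.130) and without the fourth treated one (0.146).

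Of the other checkpoint genes, Mad2l1, the gene of the APC/C inhibitor MAD2, fell in wild-type cells (-0.33), and its change of -0.12 in the knockout did not pass. Neither Bub1, a checkpoint kinase, nor Bub3, which carries BubR1 and BUB1 to kinetochores, passed in either genotype on its brightest probe set. These changes lay between -0.048 (Bub3, wild type) and 0.11 (Bub1, knockout). Dimmer probe sets above the median of all 16 arrays gave other values. For Bub3 such a probe set rose in wild-type (0.45) and fell in knockout cells (-0.50), and for Bub1 it fell in the knockout (-0.58). Cenpa, the histone H3 variant of centromeres, fell in both genotypes (-0.59 and -0.44), and the kinesin Cenpe, which carries chromosomes to the spindle equator, passed in neither (-0.11 and 0.038).

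Members of the NDC80 complex, which couples kinetochores to microtubules, moved in opposite directions. Spc25 read 4939.6, 4938, 5198 and 5326 and 2686, 2243, 2543 and 2550.4 on untreated and treated wild-type arrays. It read 5186, 4581, 4943 and 4829 and 2475, 2153, 2076 and 2231 on knockout arrays. Treated arrays lay far below untreated ones in both genotypes, and the genotypes overlapped at each treatment. The falls were -1.02 (SE 0.062, adjusted p = 1.51e-11) and -1.12 (SE 0.062, adjusted p = 4.23e-12), and the difference of -0.10 (SE 0.088, adjusted p = 0.427) (95% interval -0.29 to 0.082) did not pass. Ndc80, which gives the complex its name, gave 2342, 2019, 2249.8 and 2469.6 and 3264, 3453, 3513 and 3040.3 in wild-type cells. The knockout gave 1623, 1619.8, 1729.7 and 1546 and 2431, 2296, 2087 and 2243. Here the treated arrays lay above the untreated ones, and the knockout below the wild type at each treatment. Ndc80 rose by 0.55 (SE 0.067, adjusted p = 4.56e-07) and 0.47 (SE 0.067, adjusted p = 3.71e-06), with a difference of -0.076 (95% interval -0.27 to 0.12).

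Nuf2, a further subunit, read 4506, 4625, 4916 and 4474 and 2636, 2536, 2609.6 and 2487 on wild-type arrays. Its knockout arrays read 1965, 1685, 1669 and 2001 and 1372, 1325, 877 and 1297. All knockout arrays lay below all wild-type arrays, whatever the treatment. The log2 difference, knockout minus wild-type, was -1.34 (SE 0.10, adjusted p = 6.32e-10) without MG132 and -1.09 (SE 0.10, adjusted p = 1.34e-08) with it, and Nuf2 fell in both genotypes (-0.85 and -0.60). The difference between the responses, 0.25 (SE 0.14, adjusted p = 0.216), did not pass, but it passed without the third treated knockout array, the lowest (0.396, adjusted p = 0.00312). Cenpf, a large protein of the outer kinetochore, gave 5155, 3589.6, 3389.6 and 4056 and 4782, 6196, 5577 and 5218 in wild-type cells. It gave 3442, 2688, 2613 and 2649 and 3857, 3852, 3655 and 3852 in the knockout. The first untreated wild-type array lay within the range of the treated ones, whereas all treated knockout arrays lay above the untreated ones. The rises of 0.44 (SE 0.11, adjusted p = 0.00128) and 0.42 (SE 0.11, adjusted p = 0.00176) did not pass a difference between the genotypes (difference -0.014, 95% interval -0.33 to 0.30), and the knockout was lower at both treatments (-0.50 and -0.51).

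The kinesins and microtubule bundling proteins of the spindle showed the highest share of genotype differences among the larger role groups. Of 9 genes 7 fell (77.8%) and 0 rose in wild-type cells, against 36.9% and 27.2% of all tested genes. In the knockout 2 fell (22.2%) and 3 rose (33.3%), against 36.8% and 25.7%, and the responses of 6 differed. All 6 had the higher response in the knockout (66.7%, against 14.2% of all tested genes), and the group was not tested as such. Kif2c, a kinesin that shortens microtubules at kinetochores, read 5973, 5932, 5851 and 5746 on untreated and 3073, 3059.9, 2924 and 3161 on treated wild-type arrays. The knockout arrays read 5481, 5293, 5492 and 5577 and 4395, 4384, 4351 and 4366. The untreated knockout lay below the untreated wild type, and the treated knockout above the treated wild type, with no overlap in either. Kif2c changed by -0.94 (SE 0.040, adjusted p = 4.8e-14) and -0.32 (SE 0.040, adjusted p = 6.18e-07), a difference of 0.62 (SE 0.056, adjusted p = 9.25e-08).

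Kif23, the kinesin of the centralspindlin complex that organises the midzone for cytokinesis, gave 4637, 4379.8, 4399 and 4405 and 2959, 3160.4, 2979 and 2817 in wild-type cells. In knockout cells it gave 5091, 5267, 5179.8 and 4885 and 5072, 4638, 4792 and 5014. Treated wild-type arrays lay below all other arrays, and the knockout groups overlapped. The fall in wild-type cells was -0.58 (SE 0.047, adjusted p = 1.13e-09), the change in the knockout -0.066 (SE 0.047, adjusted p = 0.234), and the difference 0.51 (SE 0.066, adjusted p = 9.65e-06). Prc1, which bundles antiparallel microtubules, read 7235, 7980.4, 7619 and 7789 and 6141, 6214, 6482 and 5982 on wild-type arrays. It read 5841, 6021, 6201 and 6230.2 and 6734, 6443, 6144 and 6201 on knockout arrays. Untreated wild-type arrays stood above the 3 other groups, which overlapped. The difference between the responses was 0.37 (SE 0.064, adjusted p = 0.000191), and the untreated knockout lay at -0.33 (SE 0.045, adjusted p = 2.59e-06) relative to the untreated wild type.

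In Kif4, a kinesin bound to chromosomes, the direction differed: it fell in wild-type (-0.22) and rose in knockout cells (0.24), a difference of 0.47 (SE 0.076, adjusted p = 0.000111). Centring on the tested genes left its wild-type change at -0.022, not past the threshold. Kif20b, a kinesin of late mitosis, fell from 3368 ± 279.9 to 2494 ± 152 in wild-type cells and read 3370.0 ± 629 and 3473 ± 325 in the knockout, a difference of 0.49 (SE 0.14, adjusted p = 0.0132). Kif20a, which carries the passenger complex to the midzone, fell in wild-type cells (-0.26) and passed the test of the difference narrowly (0.19 (SE 0.067, adjusted p = 0.0376)). Kif11, the motor that separates the spindle poles, and Kif22, a chromosome-bound kinesin, passed in the knockout response, where they rose (0.26 and 0.33), and not in that of the wild type. The rise of Kif11 missed the threshold in 8 and that of Kif22 in 11 of 25 alternative fits with the same probe sets, among them no filter (adjusted p = 0.0561 and 0.074), no trend (0.0738 and 0.0964) and 5 and 7 of the 16 fits that left out 1 array. With the mean of all probe sets the rises were 0.103 and 0.036, neither past the threshold. Both changed direction in wild-type cells with the mean of all their probe sets (-0.257 and -0.400). Nusap1, a microtubule-bundling protein, fell in both genotypes (-0.18 and -0.19), and neither fall passed with arrays centred on the tested genes (0.026 and -0.050). The same centring left Kif20a (-0.059), Prc1 (-0.099) and Mad2l1 (-0.131) short of the threshold in wild-type cells, and Cdc25b (-0.199), Cdc25c (-0.022) and Espl1 (-0.175) in the knockout.

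All 4 genes of anaphase onset fell in wild-type cells, where 36.9% of all tested genes did. All 4 were higher in the treated knockout than in the treated wild type, against 30.7% of all tested genes. Ube2c, the ubiquitin-conjugating enzyme of APC/C, went from 17363 ± 1918 to 9429 ± 648 in wild-type and from 19553 ± 774 to 13179 ± 600.3 in knockout cells, with a difference between the responses of 0.31 (SE 0.093, adjusted p = 0.0172). Cdc20, the activator of APC/C in mitosis, changed by -0.16 (SE 0.057, adjusted p = 0.0223) and 0.15 (SE 0.057, adjusted p = 0.0301). Its fall in wild-type cells turned to 0.047 with arrays centred on the tested genes, and its rise in the knockout to -0.014 under quantile normalisation. The fall also missed the threshold without the third untreated (-0.101) or the first treated (-0.147) wild-type array, and the rise in 4 fits that left out a knockout array, with changes from 0.097 to 0.147. Espl1, the gene of separase, fell in both genotypes (-0.60 and -0.32).

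Pttg1, the gene of securin, which holds separase inactive, stood apart by its level. Its signals were 8667, 10228, 9846 and 9136 and 6446, 6242, 6144 and 6034 on untreated and treated wild-type arrays. They were 24226, 24817, 25672 and 22880.1 and 16388, 15759.7, 16404 and 16492 on knockout arrays. All knockout arrays lay above all wild-type arrays, and treated arrays lay below untreated ones in each genotype. Knockout cells were higher by 1.37 (SE 0.050, adjusted p = 4.43e-15) without and 1.39 (SE 0.050, adjusted p = 3.71e-15) with MG132, and the falls of -0.60 and -0.58 differed by 0.019 (95% interval -0.13 to 0.17). A further probe set of Pttg1 gave changes of -0.23 in wild-type and -1.01 in knockout cells, and the mean of all its probe sets a difference of -0.37, so the comparison of the falls depends on the probe set. Top2a, the gene of the topoisomerase that untangles sister chromatids, passed in neither genotype (-0.076 (SE 0.044, adjusted p = 0.144) and -0.023 (SE 0.044, adjusted p = 0.68)).

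Without MG132 the mitotic genes differed between the genotypes in both directions: 9 of 41 were higher in the knockout (22%) and 16 lower (39%), against 28.6% and 26.9% of all tested genes, with a median difference of -0.075. Under median centring 5 were higher and 11 lower, against 24.6% and 23% of all tested genes. With centring on the tested genes the counts were 10 and 11, against 34.1% and 21.9%. Pttg1, Cdk1, Bub1b and Ccnb2 had the smallest adjusted p among those higher in the knockout, and Nuf2, Cdc25c, Prc1 and Aurkb among those lower. With MG132 23 were higher in the knockout (56.1%) and 7 lower (17.1%), against 30.7% and 28.1% of all tested genes, with a median of 0.19. The counts were 27 and 3 under median centring, where all tested genes also moved, to 35.3% higher and 20.3% lower with a median of 0.116. With centring on the tested genes they were 23 and 4, against 31.3% and 26.9% of all tested genes. Without the third treated knockout array 4 were lower, Cdc25b and Nek2 no longer passed as higher, and Kif22 did. The 7 lower genes were Cdc25c, Tpx2, Cenpf, Ndc80, Nuf2, Spc25 and Top2a.

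Set against the mean of the untreated wild-type arrays, the median of the 41 genes lay at -0.35 to -0.29 on the 4 treated wild-type arrays. It lay at -0.12 to -0.032 on the untreated and at -0.17 to -0.020 on the treated knockout arrays, which overlapped. The treated wild-type arrays stood below all the other arrays. On the same arrays the median of all tested genes ranged from -0.087 to 0.031.

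**Figure D4:**
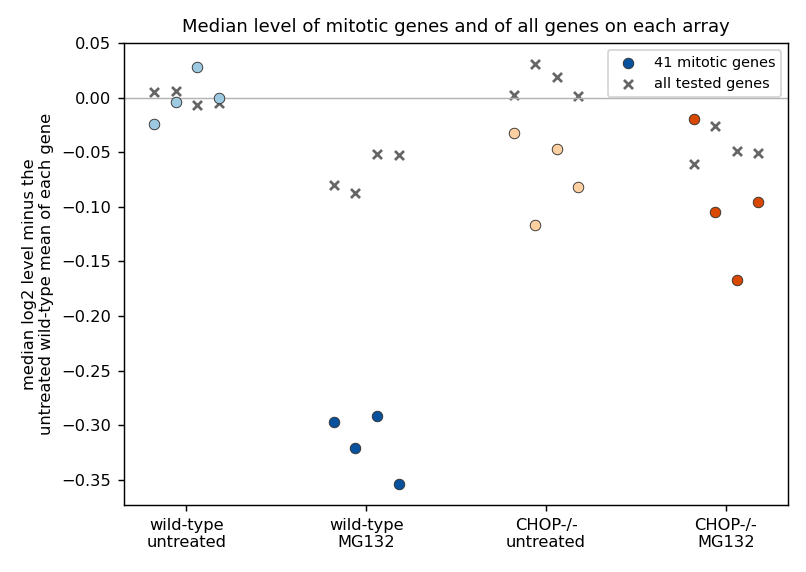
Median over the 41 mitotic genes, and over all tested genes, of the log2 signal on each array minus the mean of the untreated wild-type arrays, 1 point per array in 4 groups of 4. The treated wild-type arrays lie at -0.35 to -0.29, below every other array, whereas all medians of all tested genes lie between -0.087 and 0.031.

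Further probe sets gave another reading of the same genes. Of the 41 genes 24 had 35 further probe sets above the median of all 16 arrays, and the difference between the responses was positive in 25 and negative in 10 of these. Among them 15 were called higher and 2 lower in the knockout response, in a fit over all single-gene probe sets, dim ones included. The share called over all probe sets of that fit is not given here. Further probe sets of the genes with a called difference numbered 12, from 10 genes, all with a positive difference, of which 7 passed the threshold. These genes were picked by their positive calls on the same arrays, so this count is no independent support. Dimmer probe sets of such genes, left out of it, went both ways, for example -0.49 for Kif2c and 0.46 for Kif20b, neither past the threshold. With the mean of all probe sets of a gene, dim ones included, Bub1b, Kif20b, Kif2c, Nek2 and Ttk no longer passed the test of the difference. Ccna2 (0.192), Cdca8 (0.215), Kif11 (0.360) and Kif22 (0.436) then passed it, and Pttg1 passed with a lower knockout response (-0.370).

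Other genes of the same pathways, from lists drawn up with earlier results known, were counted in the same fits. The counts read against the shares of all tested genes, which were 36.9% lower and 27.2% higher in wild-type cells, 36.8% and 25.7% in the knockout, and 14.2% higher and 14.1% lower for the difference. Of 36 further genes of the spindle, cytokinesis and mitotic entry 28 fell and 5 rose in wild-type cells, 16 fell and 8 rose in the knockout, and the responses of 20 differed, 19 of them with the higher value in the knockout. Among these were Racgap1 (0.38), the partner of Kif23 in centralspindlin, Hmmr (0.52), a spindle-associated protein, and Cdca2 (0.48), which binds a phosphatase to chromatin. The exception was cyclin F (Ccnf), which read 2569 ± 242 and 2420.4 ± 211 in wild-type but 2539.5 ± 170.3 and 1359.8 ± 175 in knockout cells, a difference of -0.81 (SE 0.12, adjusted p = 4.78e-05). Of 28 other kinetochore and centromere genes 11 fell and 9 rose in wild-type cells, 8 fell and 12 rose in the knockout, and 10 and 2 differed upward and downward. Spc24, a further NDC80 subunit gene, fell in both genotypes (-1.30 and -0.87), and Mis12, of the complex that anchors NDC80, rose in both (0.80 and 1.02).

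Condensin and cohesin, the complexes that compact chromosomes and hold sister chromatids, had more genes that rose: 12 of 21 rose and 6 fell in wild-type cells, and 15 rose and 3 fell in the knockout. Wapl, which releases cohesin, rose by 0.86 and 0.95, and Esco2, which acetylates cohesin in S phase, by 0.84 and 1.25. Among 18 subunits and regulators of APC/C 12 fell and 4 rose in wild-type cells and 9 fell and 5 rose in the knockout, with Anapc13 at -1.10 and -1.02. Of 37 DNA replication genes 13 rose and 11 fell in wild-type cells, 18 rose and 6 fell in the knockout, and 6 and 4 differed upward and downward. Tk1, the gene of thymidine kinase, fell in both genotypes (-2.01 and -1.26), and Mcm10, a replication initiation factor, rose by 0.76 and 0.83.

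Of 23 regulators of G2 and mitotic transcription 10 fell and 7 rose in wild-type cells, 8 fell and 12 rose in the knockout, and 5 and 2 differed upward and downward. Cdkn1a, the gene of the CDK inhibitor p21, rose from 1546 ± 168 to 3925 ± 426 in wild-type and from 1843 ± 156 to 3713 ± 425 in knockout cells, and the difference of -0.33 (SE 0.13, adjusted p = 0.062) did not pass. Mybl2, which encodes B-MYB, rose in both, by 0.58 and 0.30 (difference -0.28 (SE 0.082, adjusted p = 0.014)). E2f1, an activating E2F gene, fell in both genotypes (-0.64 and -0.56). Rb1, the gene of the retinoblastoma protein, changed by -0.11 (SE 0.077, adjusted p = 0.22), not past the threshold, in wild-type cells and rose by 0.34 in the knockout (difference 0.45 (SE 0.11, adjusted p = 0.00389)). Lin54, the DNA-binding subunit of MuvB, rose by 0.72 and 1.20 (difference 0.47 (SE 0.077, adjusted p = 0.000111)).

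**Figure D5:**
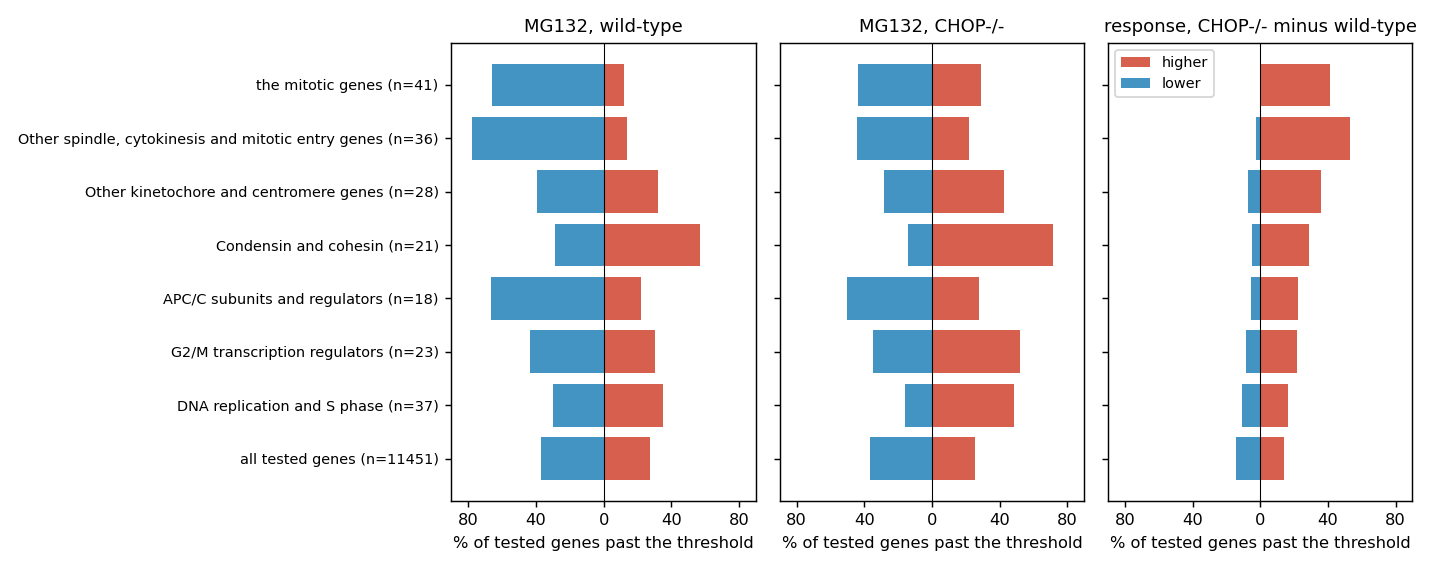
Share of tested genes (percent) called lower and higher by limma for the 41 mitotic genes, the further lists of cell division genes and all tested genes, in the wild-type response, the knockout response and their difference. For the mitotic genes 65.9% fell in wild-type and 43.9% in knockout cells, and 41.5% had the higher response in the knockout, against 14.2% of all tested genes.

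The 5 tested genes outside the set whose log2 signals over the 16 arrays were most like the mean of the 41 were Glipr1 (Pearson r = 0.986), Fermt2 and Sertad1 (0.978 each), Fam3c (0.977) and Ppp3cb (0.974). All 5 had a negative change with MG132 that was larger in wild-type cells, for example -1.31 and -0.28 for Glipr1. With 4 groups behind the 16 arrays, such values rest mainly on the order of the group means, and they are given as a description.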

How the data were processed

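Total RNA was labelled with a 3′ in vitro transcription kit, per the labels' protocols, and the authors deposited 1 linear signal intensity for each probe set and array, made with MAS5 per the submitters' processing notes (settings: not given in the sources used here). In all, the table held 45101 probe sets, of which 34945 named 1 gene, 932 several and 9160 none, with 64 array controls; gene names are those of the platform annotation. Values were transformed to log2(signal + 16) and not scaled again. Genes were tested when their brightest single-gene probe set lay above the array median on at least 4 of 16 arrays. A model with 1 coefficient per group (12 residual and 7.654 prior degrees of freedom) was fitted with limma 3.58.1 in R 4.3.3 over all tested genes, with an empirical Bayes trend, and 5 two-sided contrasts were adjusted by Benjamini and Hochberg's method and a threshold of 0.05. The fit was first tested on simulated data. "Rose", "fell", "higher" and "lower" refer to that threshold, and fold changes are on the log2(signal + 16) scale. The number of arrays limits the precision.

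The members and the other gene lists were chosen with earlier results of these data known. Values per array are given for Foxm1, for the members with the 4 smallest adjusted p in each direction of each contrast, and for those that moved against most members; of the other lists, up to 4 genes by the same rule plus E2f1, Mybl2, Rb1 and Cdkn1a are named. Alternatives were offsets of 1 and 64, quantile normalisation, centring on the array median, no filter, other probe set choices, fits of only the groups compared, no trend, a replicate block and leaving out each array. Centring on the tested genes was added after seeing the data.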

Additional observations from a re-analysis of the deposited data

Results flagged for a closer look

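In each group of 4 arrays the gap between the highest or lowest array and its nearest neighbour was set against the whole range of the group (Dixon's ratio, at its 95% critical value). Of 164 groups of 4 arrays, 41 genes in 4 groups each, 16 had such a distant array (9.76%), where chance gives about 1 in 20. In the following values the signal of the distant array is set against the range of the other 3. The first untreated wild-type array read Aurkb 4218 against 4452 to 4482 (ratio 0.888), Kif11 2399 against 3549 to 3741 (ratio 0.857), Kif23 4637 against 4379.8 to 4405 (ratio 0.901) and Plk1 4579 against 5094 to 5154 (ratio 0.896). The first untreated knockout array read Cenpe 2869 against 2395 to 2460.3 (ratio 0.863), Cenpf 3442 against 2613 to 2688 (ratio 0.909) and Kif20a 8039 against 7521 to 7554 (ratio 0.936). The third treated knockout array read Cenpf 3655 against 3852 to 3857 (ratio 0.973), Kif20b 2989.7 against 3587 to 3696 (ratio 0.846) and Nuf2 877 against 1297 to 1372 (ratio 0.85). The fourth treated wild-type array read Cks2 13328 against 13840.4 to 13862 (ratio 0.959) and Incenp 14671 against 15298 to 15423 (ratio 0.834). The first treated knockout array read Nek2 8318 against 8880.0 to 8988 (ratio 0.839) and Plk4 9819 against 8406 to 8449 (ratio 0.97). The third untreated knockout array read Plk1 4818 against 5254 to 5298 (ratio 0.908). The second treated knockout array read Pttg1 15759.7 against 16388 to 16492 (ratio 0.858). The cause of these distances was not tested.

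The responses of 17 genes to MG132 differed between the genotypes in the test of the difference itself, knockout minus wild-type. The log2 differences were Cdc25b 0.65, Plk1 0.63, Kif2c 0.62, Birc5 0.59, Bub1b 0.55, Ttk 0.55, Kif23 0.51, Aurkb 0.49, Kif20b 0.49, Kif4 0.47, Cks2 0.43, Prc1 0.37, Cdc25c 0.33, Ube2c 0.31, Cdc20 0.30, Kif20a 0.19 and Nek2 0.18. Each was positive, as the fall with MG132 was smaller in the knockout or gave way to a rise or to a change that did not pass, or, for Nek2, the rise was larger there. Among these genes Aurkb, Cks2, Kif20a, Kif20b, Kif23, Nek2 and Plk1 also had a group with a distant array. Leaving out any 1 array left 15 to 20 genes with a called difference.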

How the results depend on the processing

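The 13 called differences between the responses other than those of Cdc20, Ube2c, Kif20a and Nek2 kept their direction and their call in all 24 alternative fits with the same probe sets, and 9 of the 17 kept both with other probe sets as well. Centring on the array median gave medians over the mitotic genes of -0.385 (wild-type response), -0.023 (knockout response), 0.308 (difference) and 0.288 (treated knockout against wild type). With it 5 genes were higher in the untreated and 3 lower in the treated knockout, against 24.6% and 20.3% of all tested genes. Of the tested genes 713 instead of 1616 had a lower knockout response. Centring on the tested genes, added after seeing the data, gave medians of -0.131, 0.079 (the direction turned, as did the median of all tested genes, from -0.074 to 0.071) and 0.156, and -0.004 for the untreated genotypes. With it 11 genes were higher in wild-type cells and 4 lower in the treated knockout, against 40% and 26.9% of all tested genes. The calls over all tested genes then were 4582 higher and 2860 lower, instead of 3109 and 4231, in wild-type cells, and 3995 and 3167, instead of 2944 and 4210, in the knockout. The mean of all probe sets left 3 genes higher in wild-type and 6 in knockout cells (median -0.144), 5 higher in the untreated knockout and 1 with a lower knockout response. Without suffixed probe sets (names ending in _s_at, _x_at, _a_at or _f_at, left out where a gene had another) the median was -0.271 in wild-type cells and 0.266 for the difference, with 2 lower responses.

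Leaving out each array in turn gave 26 to 28 genes lower and 4 to 6 higher in wild-type cells (median -0.381 to -0.303), 17 to 19 and 8 to 12 in the knockout (-0.081 to -0.042), 15 to 20 higher and 0 to 1 lower differences (0.181 to 0.249), 6 to 9 higher and 14 to 16 lower in the untreated knockout (-0.092 to -0.057), and 21 to 23 higher and 4 to 7 lower in the treated knockout (0.149 to 0.204).

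Single genes changed direction with other probe sets. With the mean of all probe sets Kif11 (-0.257) and Kif22 (-0.400) did so in wild-type cells, Bub1 (-0.239) in the knockout, Pttg1 (-0.370) in the difference, Cks2 (0.064) and Kif2c (0.019) between untreated and Bub3 (-0.181) and Cenpa (-0.464) between treated genotypes. Without suffixed probe sets Bub3 (0.448), Incenp (-0.224), Kif20b (0.102) and Kif22 (-0.630) did so in wild-type cells, Kif22 (-0.062) in the knockout, Bub3 (-0.950) and Top2a (-0.398) in the difference, Cks2 (0.308), Kif2c (0.019), Cenpa (-1.350) and Nek2 (0.381) between untreated and Bub3 (-0.534) and Cenpa (-2.190) between treated genotypes. Centring on the tested genes turned Aurka (0.173), Bub3 (0.155), Cdc20 (0.047), Foxm1 (0.198), Nusap1 (0.026) and Top2a (0.128) in wild-type cells and Top2a (0.122) in the knockout, and quantile normalisation turned Cdc20 (-0.014) in the knockout. The cause was not tested beyond the shift that the centring itself makes.

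The replicate numbers were not taken to pair the plates. In 24 pairs of arrays with the same number deviations correlated at -0.07 to 0.161 (median 0.04, 5 over 0.1), and in 72 with different numbers at -0.169 to 0.127 (median -0.02, 5 over 0.1); the untreated same-numbered pairs across genotypes, at 0.085 to 0.161, were all positive. With the number as a replicate block 5 genes were higher and 27 lower in wild-type cells, 11 and 18 in the knockout, 18 and 0 in the difference, 9 and 16 in the untreated and 23 and 7 in the treated knockout. Fits of only the groups compared gave no value for the difference, which needs all 4 groups.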
